A study of Mus musculus with 6 samples.

Results

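The 10 genes described here, Tsc1, Tsc2, Rheb, Mtor, Rptor, Rictor, Prkaa1, Prkaa2, Foxo1 and Foxo3, are the central genes of the TSC, mTOR, AMPK and FOXO pathway, taken by gene symbol out of the 23260 genes listed in each of 6 libraries. Tsc1 and Foxo1 were selected in the study on the comparison of AMD3100-treated with control glands in these same libraries, so the difference between the groups is given for all 10 genes as a description with no p-value, and how many of them pass the thresholds used for all genes is a description too. The libraries came from embryonic submandibular glands (eSMGs), the developing salivary glands, of ICR mice at embryonic day 14 (E14), cultured ex vivo for 6 h. The control group was left without inhibitor, and the AMD3100 group received 50 µM AMD3100, a bicyclam that blocks CXCR4, the receptor of the chemokine CXCL12. Each group held 3 libraries, each made from a tube of up to 10 pooled glands with a 3′ mRNA kit, which reads only the ends of transcripts. The study's methods speak of independent experiments for its results in general, but no source says that these 3 tubes came from separate litters or cultures, so the p-values given for other genes measure the spread between these samples, part of which may be technical. The glands were whole, so fewer cells of a type and less RNA per cell cannot be told apart.

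The TSC1-TSC2 complex switches off the small GTPase RHEB, which in its active form turns on the kinase mTOR at the lysosome. mTOR works in a pair of complexes, mTORC1 with its subunit RPTOR, which drives protein and lipid synthesis and restrains autophagy, and mTORC2 with its subunit RICTOR, which activates AKT. AMPK senses low energy, activates TSC2 and restrains mTORC1, while AKT inactivates TSC2 and keeps FOXO transcription factors out of the nucleus, where FOXO proteins switch on genes of cell cycle arrest, stress resistance and catabolism. In branching organs these kinases link growth factors and nutrients to cell growth.

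The total count was 11532946, 13127539 and 10869528 in control replicates 1, 2 and 3, and 14393031, 11358828 and 9051595 in AMD3100 replicates 1, 2 and 3. Levels are TMM-normalized CPM, that is, counts scaled to the library size, and since a 3′ kit gives reads only from the transcript end, they were not divided by transcript length. A count of 3, taken as the floor, stood at between 0.173 and 0.368 CPM. This floor and the counting intervals below cover counting error only. Of the E14 epithelial markers, all 10 listed genes passed edgeR's filter on low counts, Cdh1 (E-cadherin) at 283 ± 65.2 CPM (SD, n = 3) in control and 415 ± 83.4 CPM with AMD3100, and all 10 mesenchymal markers passed it too.

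Both replicate 3 libraries stood apart from the other 4. The first principal component, with 38.2% of the variance, put control replicate 3 at 84.8 and AMD3100 replicate 3 at 80.8, and the other 4 libraries between -78.7 and -17.4. The second component, with 26.3%, set control replicate 1 (82.3) and AMD3100 replicate 2 (-87.6) farthest apart. Summed skeletal muscle markers stood at 1864 CPM in control replicate 3 and 2553 CPM in AMD3100 replicate 3, against 379 and 397 CPM in the other control libraries and 264 and 229 CPM in the other AMD3100 libraries. Myog had the most counts of them in both replicate 3 libraries and Actc1 in the other 4. For the 9 genes of the 10 that were fitted, the log2 fold change is therefore also given in replicates 1 and 2 alone.

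Short stretches of the transcription start regions are printed because 5 of the 10 genes share the letters AANATGG there, the core of the YY1 motif, which 16.1% of 32851 RefSeq windows of 300 bases (250 before the start and 50 after it) hold on either strand. Each motif was searched on both strands, and matches of different motifs did not overlap in the 10 genes. The motif was chosen after these sequences were read, so the count of 5 of 10 is a description. Each window is 30 bases of GRCm38.p6 as read 5′ to 3′ on the gene's own strand, with the match in capitals, written as CCATNTT where it lies on the opposite strand.
Tsc1: tgctgcgcgtccAAGATGGcggcgccctgt
Prkaa1: agttcctggagaAAGATGGcgacggccgag
Rictor: ctgaaacccgtcAATATGGcggcgatcggc
Mtor: ggatgttcctccCCATCTTcgagctcggcc
Prkaa2: gattcatcccttCCATCTTcaccgccctgg
The start is that of the RefSeq promoter table and counts as base 1. For Tsc1 (start at 28641233) and Rictor (start at 6708381) it lies 240 and 32 bases inside the gene span given below, and for the other 5 genes printed here it is the 5′ end of the span. The Tsc1 stretch is chr2:28641242-28641271 on the plus strand and its match begins at base 22. That of Prkaa1 is chr15:5143881-5143910 on the plus strand, with the match from base 33. Rictor has its match from base 20, at chr15:6708388-6708417 on the plus strand. These 3 matches lie inside the gene spans. In Mtor (chr4:148448511-148448540, plus strand) and Prkaa2 (chr4:105110016-105110045, minus strand) the match lies before the start, 59 and 135 bases from it. The FOXO element GTAAACA was in none of the 10 windows and in 3.65% of all, which says only that these letters are not in these 300 bases. The E-box CACGTG, held by 7.15% of all windows, was in the window of Rheb alone among the 10, and CCAAT, held by 37.4%, was in those of Foxo1, Mtor and Rictor.
Rheb: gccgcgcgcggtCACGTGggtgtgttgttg
Foxo1: caggcccgcgttcATTGGctgcttcggcgg
The Rheb stretch is chr5:24842440-24842469 on the minus strand, with the E-box 96 bases before the start. The Foxo1 stretch is chr3:52268269-52268298 on the plus strand, with 1 of the 3 CCAAT boxes of the window, read here from the opposite strand as ATTGG, 55 bases before the start.

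Among the 10 genes, Tsc2 had the highest level in both groups, 44.9 ± 3.39 CPM (SD, n = 3) in control and 46.6 ± 1.86 CPM in AMD3100-treated eSMGs, and Foxo3 the lowest. In control, the levels then ran from Rheb through Mtor, Rictor and Tsc1, neighbours whose libraries overlapped, to Prkaa1, Rptor and Foxo1, whose libraries also overlapped with each other, and then to Prkaa2 and Foxo3. Only the steps from Tsc2 to Rheb, from Tsc1 to Prkaa1 and from Foxo1 to Prkaa2 left no overlap between neighbours. In AMD3100-treated eSMGs the order was Tsc2, Rheb, Tsc1, Prkaa1, Mtor, Rictor, Foxo1, Rptor, Prkaa2 and Foxo3. There Foxo1 stood above Rptor with no overlap, whereas in control the libraries of these neighbours overlapped.

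**Figure D1:**
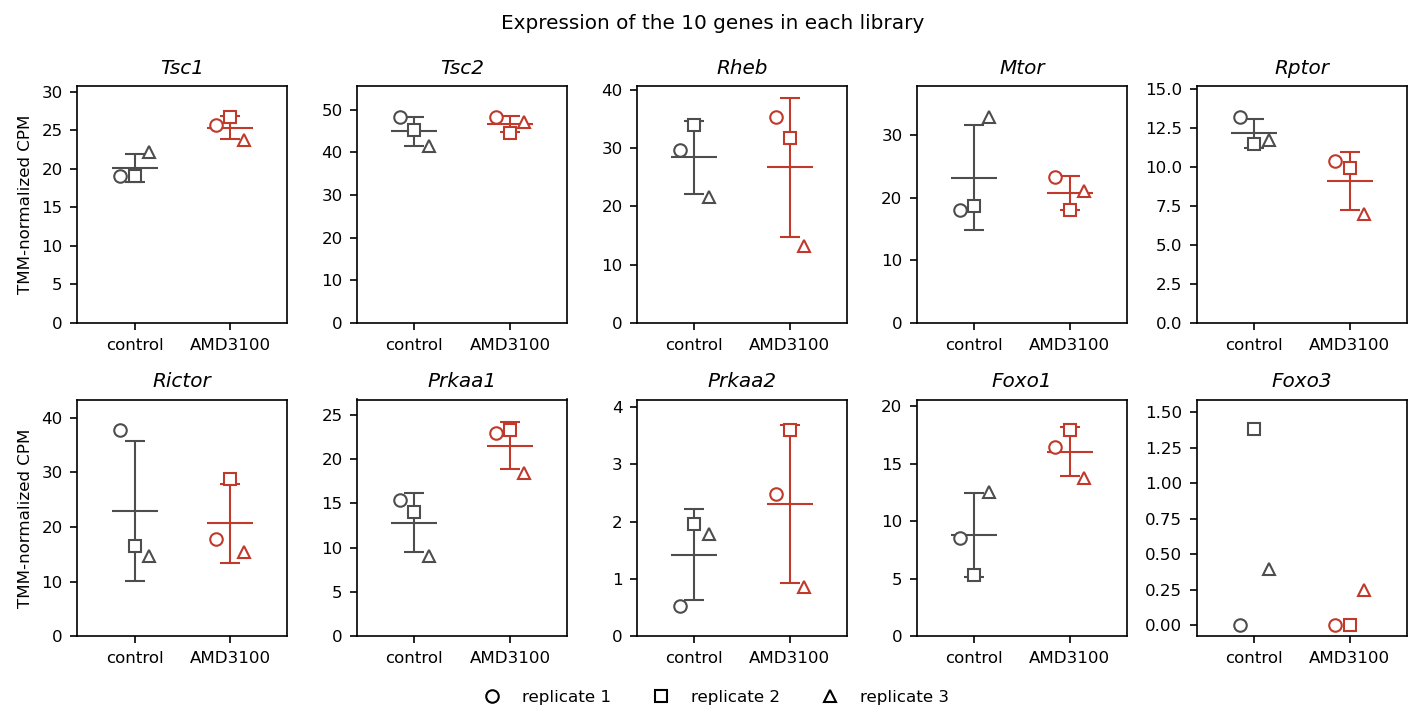
Expression of each of the 10 genes in TMM-normalized CPM (linear axis, each panel with its own scale) in 3 control (grey) and 3 AMD3100-treated (red) libraries, with the shape giving the replicate number and the bars the mean ± SD, left out for Foxo3 because of its low counts. The AMD3100 libraries of Tsc1, Prkaa1 and Foxo1 all lie above the control libraries, those of Rptor all lie below, and the groups overlap for the other 6 genes.

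Tsc1 (chr2:28640993-28691172, GRCm38.p6) encodes hamartin, which stabilizes the TSC complex. Its level was 19.1, 19.0 and 22.1 CPM in control replicates 1, 2 and 3 and 25.6, 26.7 and 23.7 CPM in AMD3100 replicates 1, 2 and 3. All 3 AMD3100 libraries stood above all 3 control libraries, with a log2 fold change of 0.34 (SE 0.30), from a mean of 20.1 ± 1.78 to 25.4 ± 1.53 CPM. Across 15 other settings the log2 fold change lay between 0.30 and 0.45, and it was 0.45 in replicates 1 and 2 alone. In the replicate 3 pair the log2 ratio was 0.10, against 0.43 and 0.49 in the pairs of replicates 1 and 2. The spread of Tsc1 between libraries of a group was small, with an SD of 0.11 on the log2 scale against a median of 0.63 for the 13610 genes tested.

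Tsc2 (chr17:24595816-24632676) encodes tuberin, the subunit that acts on RHEB. The 3 control libraries had 48.2, 45.2 and 41.4 CPM and the 3 AMD3100 libraries 48.3, 44.6 and 47.0 CPM. These values overlapped throughout, and the log2 fold change was 0.05 (SE 0.26), with a sign that turned in 1 of 15 settings, replicates 1 and 2 alone (-0.01). The 3′ end of Tsc2 overlaps that of Pkd1 on the opposite strand, and as no source says whether the counting used strand, reads of the pair cannot be told apart. Pkd1 had 38.4, 36.6 and 34.3 CPM in control and 35.9, 30.3 and 39.9 CPM in AMD3100-treated eSMGs. Within each library, the log2 ratio of Tsc1 to Tsc2 counts was -1.33, -1.25 and -0.90 in control and -0.91, -0.74 and -0.99 in AMD3100-treated eSMGs, so that the groups overlapped, with a difference of means of 0.28. Tbc1d7, the third subunit of the complex, was at 6.22, 9.03 and 2.19 CPM in control and 6.74, 6.45 and 2.09 CPM with AMD3100, low in both replicate 3 libraries.

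Rheb (chr5:24802823-24842361) encodes the GTPase on which the TSC complex acts. Its libraries had 29.7, 33.9 and 21.6 CPM in control and 35.3, 31.6 and 13.1 CPM with AMD3100. Both replicate 3 libraries were below the other 4, the groups overlapped, and the log2 fold change of -0.09 (SE 0.42) turned its sign in 3 of 15 settings, among them replicates 1 and 2 alone (0.07). Mtor (chr4:148448582-148557685), the kinase itself, had 18.0, 18.7 and 32.9 CPM in control and 23.4, 18.0 and 21.0 CPM with AMD3100. Control replicate 3 was the highest of the 6, and the log2 fold change of -0.16 (SE 0.36) became 0.18 without it and 0.17 in replicates 1 and 2 alone.

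Rptor (chr11:119602905-119899591) encodes the subunit that brings substrates to mTORC1. It had 13.2, 11.5 and 11.8 CPM in control and 10.4, 9.95 and 7.0 CPM with AMD3100. Rptor was the only one of the 10 whose AMD3100 libraries all lay below the control libraries, with a log2 fold change of -0.41 (SE 0.39) and a range of -0.52 to -0.27 over the settings (-0.29 in replicates 1 and 2 alone). Rictor (chr15:6708349-6800401), the mTORC2 subunit, had 37.6, 16.5 and 14.7 CPM in control and 17.8, 28.8 and 15.4 CPM with AMD3100. Control replicate 1 was the highest of the 6 libraries, the control mean was 22.9 ± 12.8 CPM, and the log2 fold change moved from -0.15 (SE 0.46) to between -0.46 and 0.40 when 1 library was left out, with -0.23 in replicates 1 and 2 alone. The log2 ratio of Rptor to Rictor within a library overlapped between the groups, with means of -0.78 in control and -1.14 with AMD3100.

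Prkaa1 (chr15:5143861-5181899) encodes the AMPK catalytic subunit α1. It had 15.4, 14.0 and 9.07 CPM in control and 22.9, 23.2 and 18.4 CPM in AMD3100-treated eSMGs. Every AMD3100 library exceeded every control library, and the mean was 12.8 ± 3.32 CPM in control and 21.5 ± 2.69 CPM with AMD3100, a log2 fold change of 0.75 (SE 0.36). Its log2 ratio was 0.57, 0.73 and 1.02 in the pairs of replicates 1, 2 and 3, with estimates of the log2 fold change from 0.56 to 0.89 over all 15 settings and 0.64 in replicates 1 and 2 alone. The gene Gm15938 overlaps the 3′ end of Prkaa1 on the opposite strand and is not listed in the files. Prkaa2 (chr4:105029649-105109898), for the α2 subunit, was detected at 6, 27 and 18 counts in control and 43, 39 and 7 counts with AMD3100. These were 0.525, 1.97 and 1.80 CPM in control and 2.48, 3.59 and 0.860 CPM with AMD3100, overlapping, with a log2 fold change of 0.69 and an SE of 1.12. The estimate lay between 0.22 (limma-voom) and 1.27 (replicates 1 and 2 alone) over 14 settings, with 0.29 without control replicate 1 and 0.23 without AMD3100 replicate 2. Of the summed CPM of the α pair, Prkaa1 made up 90.0% in control and 90.3% in AMD3100-treated eSMGs, with single libraries from 83.5% to 96.7% in control and from 86.6% to 95.5% with AMD3100, an overlap.

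Foxo1 (chr3:52268337-52350109) encodes a forkhead factor that AKT phosphorylates. Its level was 8.58, 5.32 and 12.6 CPM in control and 16.5, 17.9 and 13.8 CPM with AMD3100. All AMD3100 libraries lay above all control libraries, though AMD3100 replicate 3 exceeded control replicate 3 by a log2 ratio of 0.13 only, against 0.94 and 1.75 in the pairs of replicates 1 and 2. The mean was 8.82 ± 3.63 CPM in control and 16.0 ± 2.10 CPM with AMD3100, with a log2 fold change of 0.86 (SE 0.43). The estimate was 0.60 without control replicate 2, 1.21 without control replicate 3 and 1.30 in replicates 1 and 2 alone.

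Foxo3 (chr10:42181845-42276695), a related forkhead factor, had 0, 19 and 4 counts in control and 0, 0 and 2 counts with AMD3100, and did not pass the filter on low counts. Of the 23 control counts, 19 were in control replicate 2, so the pooled ratio of 0.0842 (exact 95% interval 0.00962 to 0.341, AMD3100 over control) rests on that library. In the libraries with 0 counts, control replicate 1 and AMD3100 replicates 1 and 2, the floor of 3 counts stood at 0.263, 0.173 and 0.277 CPM. The exact 95% counting interval reached 0.320, 0.256 and 0.325 CPM there, taken on the total count without TMM. Among the FOXO family, Foxo4 was the most abundant, with 36.2, 33.9 and 48.3 CPM in control and 51.9, 46.1 and 56.0 CPM with AMD3100. The groups overlapped, and its log2 fold change was 0.38 (SE 0.28). Foxo1 made up 14.7% of the summed CPM of the 4 FOXO genes in control and 20.1% in AMD3100-treated eSMGs, Foxo4 65.7% and 64.4%, Foxo6 18.7% and 15.4%, and Foxo3 0.989% and 0.103%. The share of Foxo1 ran from 10.9% to 16.4% in the control libraries and from 16.8% to 22.9% in the AMD3100 libraries, with no overlap.

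**Figure D2:**
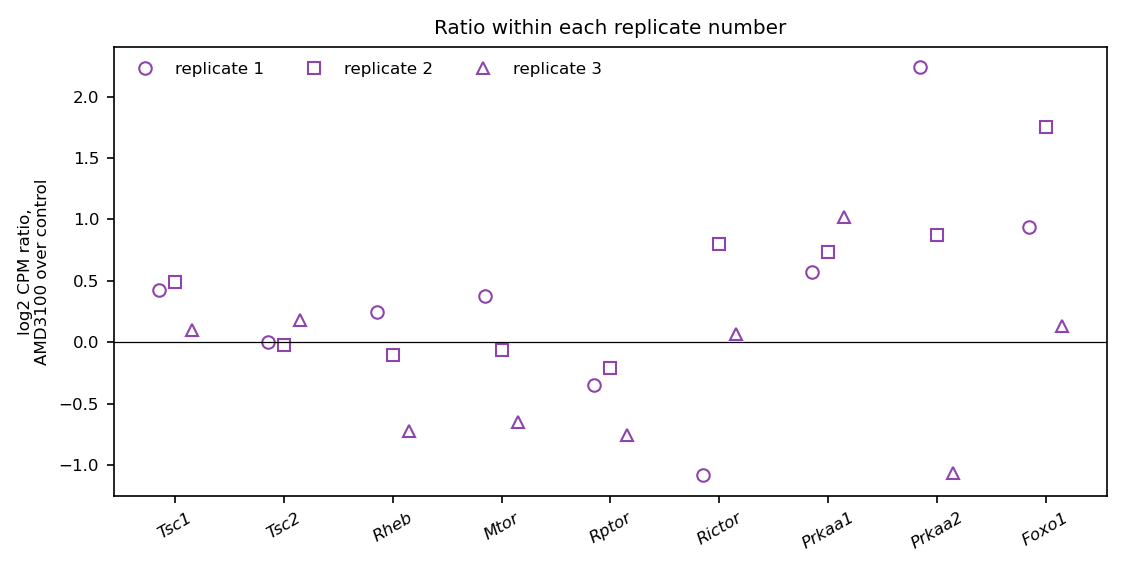
The log2 ratio of CPM, AMD3100 over control, within replicates 1 (circles), 2 (squares) and 3 (triangles) for 9 genes, with the line at equal levels. The 3 ratios of Prkaa1 lie between 0.57 and 1.02, whereas Tsc1 and Foxo1 have theirs nearest the line in replicate 3, at 0.10 and 0.13.

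Across the 13610 genes that passed the filter, 228 (1.68%) had a fold change over 1.5 with an unadjusted p-value under 0.05 in edgeR's quasi-likelihood test, 54 (0.397%) higher and 174 (1.28%) lower in AMD3100-treated eSMGs. By that rule 0 of the 9 members that passed the filter were called. After Benjamini-Hochberg adjustment 0 genes (0%) passed, with DESeq2 5 and with the replicate number as a block 3. The block raised the number by the first rule to 598 (4.39%), of which 203 (1.49%) were higher and 395 (2.9%) lower, and 2 members, Prkaa1 and Foxo1, were then among the higher ones. Their block estimates were 0.77 (SE 0.29) and 0.94 (SE 0.41). All 3 AMD3100 libraries lay above all 3 control libraries for 446 genes (3.28%) and below for 567 (4.17%), and for 3 and 1 of the members. As Tsc1 and Foxo1 were selected on this contrast, these counts of members test nothing, and nothing is read from them. Regardless of p, 5 of the 9 were higher and 4 lower, with a median log2 fold change of 0.05, beside 0.02 over all genes tested.

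**Figure D3:**
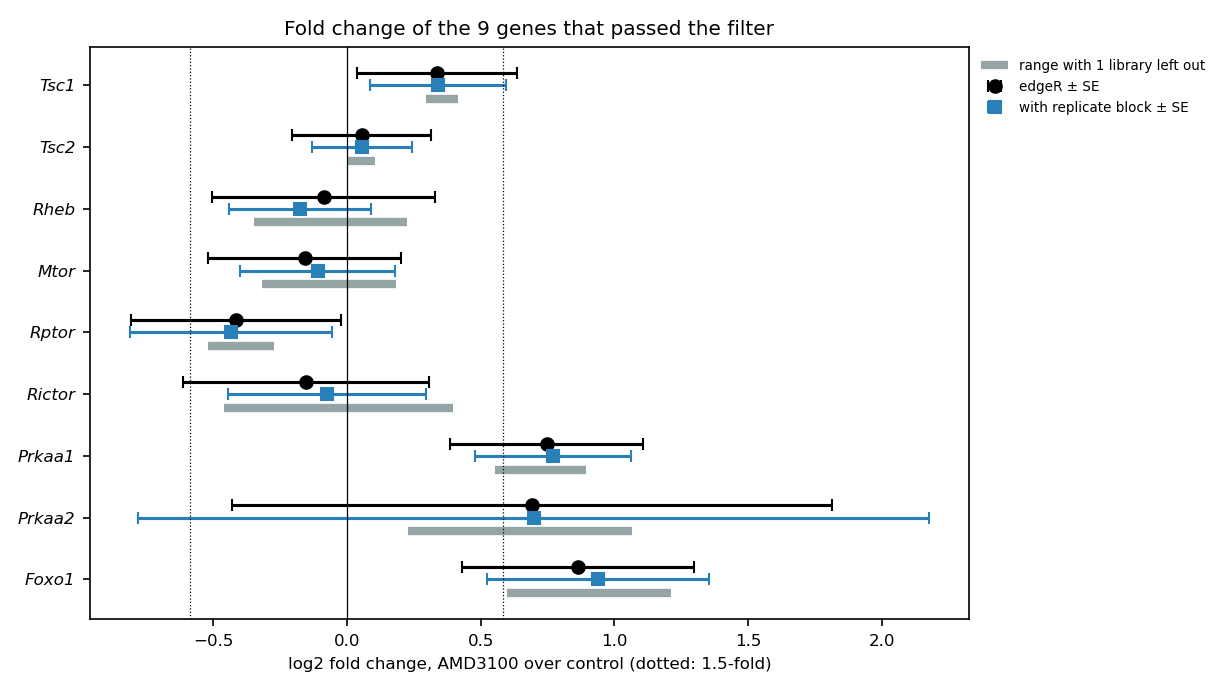
The log2 fold change, AMD3100 over control, of the 9 genes that passed the filter, by edgeR without (circles) and with (squares) the replicate block, with the SE as bars and the range when 1 library is left out in grey. Prkaa1, Prkaa2 and Foxo1 lie past the dotted line of 1.5-fold, and the grey ranges of Rheb, Mtor and Rictor cross 0.

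The other genes of the pathway were counted in 16 lists that hold 170 genes without the 10. Of these, 164 were tested, and 89 were higher and 75 lower, with a median log2 fold change of 0.03. Only Ccng2 and Gadd45a were called by edgeR at a fold change over 1.5 and an unadjusted p under 0.05, both lower with AMD3100, which is 1.22% of the genes tested in the lists beside 1.68% of all genes. Both are from the list of 22 tested FOXO targets, of which 13 were higher and 9 lower, with a median of 0.05. The list was made without regard to whether FOXO factors raise or lower a gene, so these counts are not a reading of FOXO activity. Ccng2, for the cell cycle inhibitor cyclin G2, had 15.8, 10.8 and 29.0 CPM in control and 5.13, 6.64 and 9.21 CPM with AMD3100. These groups did not overlap, and the log2 fold change was -1.41 (SE 0.49, edgeR adjusted p = 1.0). The call was lost without control replicate 3 (-0.92), without AMD3100 replicate 1 (-1.22) and in replicates 1 and 2 alone (-1.18). Gadd45a, a growth arrest and DNA damage gene, had 14.1, 7.21 and 4.49 CPM in control and 2.82, 2.12 and 4.30 CPM with AMD3100. Its groups were separated by the narrow step between both replicate 3 libraries, and the log2 fold change was -1.48 (SE 0.65, edgeR adjusted p = 1.0). With the replicate block Gadd45a no longer passed (-1.41), nor without control replicate 1 (-0.93), control replicate 2 (-1.59), AMD3100 replicate 1 (-1.42) or AMD3100 replicate 2 (-1.27), nor by limma-voom after quantile normalization (-1.36) or without the filter on low counts (-1.47).

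Other genes of the FOXO target list with high levels were Ccnd2 and Ccnd1, for D-type cyclins, and Cdkn1b, for the inhibitor p27. The list does not say which of these FOXO factors switch on. Ccnd1 had 267, 360 and 257 CPM in control and 226, 321 and 140 CPM with AMD3100, lower in each pair of replicates, with a log2 fold change of -0.37 (SE 0.36). Ccnd2 had 803, 907 and 421 CPM in control and 950, 931 and 610 CPM with AMD3100, higher in each pair, with 0.22 (SE 0.36). Neither passed the test, and for both genes the groups overlapped. Cdkn1b had 75.7, 121 and 18.1 CPM in control and 69.2, 80.6 and 20.5 CPM with AMD3100, lowest in both replicate 3 libraries.

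Upstream of the TSC complex, the list of 18 PI3K and AKT genes had 11 higher and 7 lower, with 0 called and a median of 0.05. Akt1 had 365, 478 and 85.7 CPM in control and 360, 336 and 67.8 CPM with AMD3100, whereas Akt2 had 97.3, 108 and 247 CPM in control and 87.0, 83.3 and 231 CPM with AMD3100. Akt1 was thus the more abundant of these AKT genes in replicates 1 and 2, and Akt2 in replicate 3, in both groups. The inputs that restrain mTORC1 under stress had 4 of 8 higher and 4 lower, and Ddit4 (REDD1), which acts through the TSC complex, had 204, 300 and 186 CPM in control and 233, 171 and 134 CPM with AMD3100, an overlap. For the drugged axis itself, the log2 fold change was -0.50 (SE 0.44) for Cxcr4 and -0.39 (SE 0.32) for Cxcl12, neither called. In replicates 1 and 2 alone these were -0.26 and -0.00690, and in the pair of replicate 2 both genes were higher with AMD3100, with log2 ratios of 0.54 and 0.21.

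At the lysosome, where amino acids act on mTORC1, 0 of 4 tested RAG and RHEB-like GTPases, 0 of 9 Ragulator and FLCN genes and 0 of 15 GATOR, KICSTOR, sestrin and CASTOR genes were called. In the last list 11 genes were higher and 4 lower, with a median of 0.15. Sec13, a GATOR2 subunit that also serves in vesicle coats and nuclear pores, had 50.3, 65.3 and 49.4 CPM in control and 37.7, 43.0 and 27.3 CPM with AMD3100. Its groups did not overlap, and the log2 fold change of -0.61 (SE 0.30) passed the same thresholds only with the replicate block (edgeR adjusted p = 0.60). Rraga, the RAGA gene, ranged from 99.4 to 419 CPM in control and from 81.7 to 294 CPM with AMD3100, highest in both replicate 3 libraries.

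The 8 tested subunits of the mTOR complexes beside Mtor, Rptor and Rictor had 4 higher and 4 lower, with 0 called and a median of -0.00457. Mlst8, a subunit of both complexes, had 44.4, 46.6 and 67.5 CPM in control and 35.9, 46.4 and 82.4 CPM with AMD3100. Deptor, an inhibitor of mTOR, had 23.6, 43.2 and 16.4 CPM in control and 24.0, 16.7 and 14.7 CPM with AMD3100, a log2 fold change of -0.58 (SE 0.43) with overlapping groups, which was -0.11 without control replicate 2. Of 14 mTORC1 substrates, 7 were higher and 7 lower with 0 called.

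For AMPK, 4 other subunits were tested, 2 higher and 2 lower with 0 called. Prkag1, for the γ1 subunit, had 136, 144 and 434 CPM in control and 130, 134 and 470 CPM with AMD3100, again set apart in replicate 3, with a log2 fold change of 0.04 (SE 0.62). The estimate was -0.87 without AMD3100 replicate 3 and 0.82 without control replicate 3. Stk11, for the AMPK-activating kinase LKB1, was even across libraries, with 97.9, 84.6 and 82.3 CPM in control and 88.9, 87.4 and 102 CPM with AMD3100. In its list of 7 AMPK upstream kinases, 2 were higher and 5 lower with 0 called and a median of -0.09. Of the 8 tested AMPK substrates, 6 were higher and 2 lower with 0 called and a median of 0.22. Acaca, for acetyl-CoA carboxylase, had 58.9, 59.1 and 34.5 CPM in control and 76.5, 59.6 and 50.6 CPM with AMD3100, higher in each pair but overlapping. Of 11 reads from its 3′ end, 7 also match elsewhere in the genome, so its counts are uncertain.

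Among the readouts of mTORC1, the 15 tested SREBP targets of sterol and lipid synthesis had 9 higher and 6 lower, with 0 called and a median of 0.03. Fasn, for fatty acid synthase, had 216, 274 and 209 CPM in control and 313, 286 and 307 CPM with AMD3100. Its groups did not overlap, but its log2 fold change of 0.37 (SE 0.27) did not pass. The 15 tested ATF4 targets of amino acid supply had 6 higher and 9 lower, with 0 called without the block. With the block Psph, a serine synthesis enzyme, and Slc7a5, a leucine transporter, were called lower. Psph had 20.1, 36.8 and 14.3 CPM in control and 19.1, 7.19 and 6.75 CPM with AMD3100 (log2 fold change with the block -1.15, edgeR adjusted p = 0.70), and Slc7a5 had 40.7, 18.6 and 64.4 CPM in control and 21.4, 11.2 and 48.3 CPM with AMD3100 (-0.69, edgeR adjusted p = 0.61). Both were lower in each pair, and for both genes the groups overlapped. Without the block the log2 fold change was -1.10 for Psph, which lay between -1.77 and -0.64 with 1 library left out, and -0.62 for Slc7a5, which lay between -1.35 and -0.13. Psph also passed without AMD3100 replicate 1, without control replicate 3 and in replicates 1 and 2 alone, and Slc7a5 without AMD3100 replicate 3. The 26 autophagy and lysosome genes had 15 higher and 11 lower, with 0 called and a median of 0.04.

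**Figure D4:**
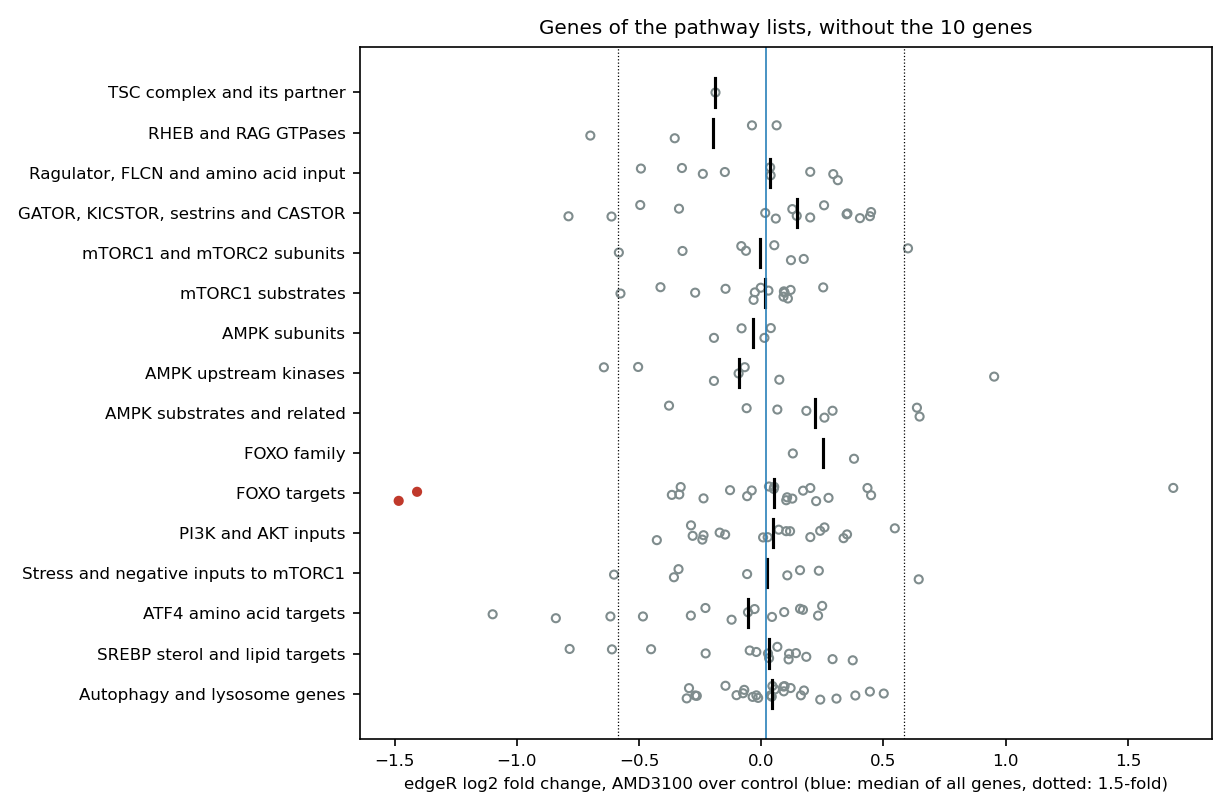
edgeR log2 fold changes, AMD3100 over control, of the tested genes of 16 pathway lists without the 10 genes described, with the list median as a black bar, the median of all genes (0.02) in blue and called genes filled red. The list medians lie between -0.20 and 0.25, and the called genes, Ccng2 and Gadd45a, stand at the left among the FOXO targets.

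Many genes of the lists differed by replicate number. Both replicate 3 libraries lay above or below all 4 others for 94 of the 164 list genes (57.3%), 50 above and 44 below, and for 6011 of the 13610 genes tested (44.2%). Of the 9 tested members, Rheb and Rictor showed this, both lower in replicate 3, while Tsc1, Prkaa1 and Foxo1 did not. The muscle markers were high in the same libraries, and their part in these differences was not tested. All AMD3100 libraries lay above or below all control libraries for 6 of the 164 list genes (3.66%), Fasn and Pik3r2 above and Ccng2, Gadd45a, Sec13 and Idi1 below. Over all genes tested this held for 1013 of 13610, with 3.28% above and 4.17% below. Most reads from the 3′ end of Idi1 also match elsewhere in the genome (10 of 11), so its counts are uncertain.

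Cell type markers were read beside the members. The summed level of the 10 epithelial markers was 2189, 2178 and 1523 CPM in control and 2611, 2328 and 3515 CPM with AMD3100, above control in every AMD3100 library as for Tsc1, Prkaa1 and Foxo1. Krt15, the most abundant of them, had 1042, 1012 and 888 CPM in control and 1367, 1016 and 2472 CPM with AMD3100. Without Krt15 the sum was 1148, 1167 and 634.5 CPM in control and 1244, 1312 and 1044 CPM with AMD3100, so the groups overlapped without it, while each AMD3100 library stayed above the control library of its number. Of the 10, 8 were higher and 2 lower with 0 called without the replicate block, and Krt15 was called higher with it (log2 fold change 0.72 without and 0.62 with the block, edgeR adjusted p = 0.70). None was at 0 in all libraries. The part of the epithelial markers in the levels of Tsc1, Prkaa1, Foxo1 and Rptor was not tested. The mesenchymal markers summed to 4463, 4386 and 2144 CPM in control and 4436, 4435 and 1851 CPM with AMD3100, so they differed by replicate and overlapped between groups, as did the markers of muscle, endothelium, macrophages, red cells, nerve, cartilage and fat. Of the 9 red cell markers, 0 were higher and 9 lower with AMD3100, with a median log2 fold change of -0.45 and 0 called. Of the 7 tested endothelial markers, 1 was higher and 6 were lower, with a median of -0.45 and 0 called. By replicate number, the cartilage and the fat sums were lower with AMD3100 in each of the 3 pairs, and the epithelial sum was higher in each. Single markers called lower in these lists, with and without the block, were Fabp7 (25.4 ± 19.0 CPM in control and 7.22 ± 3.002 CPM with AMD3100) and Fabp4 (30.8 ± 22.1 and 10.8 ± 2.57 CPM), both lipid-binding proteins and both named after their values were seen. With the block alone, 3 transcription factors were also called lower, Myog (log2 fold change -0.24 without and -1.16 with the block, edgeR adjusted p = 0.47), Myod1 (-0.96 and -2.05, adjusted p = 0.72) and the mesenchymal Twist1 (-0.87 and -0.97, adjusted p = 0.70). Without the block, 10 of the 13 muscle genes were higher and 3 lower, with a median of 0.33. The muscle sum, though, was lower with AMD3100 in the pairs of replicates 1 and 2. In that of replicate 3 it was higher, at 1864 CPM in control and 2553 CPM with AMD3100. With the block, other muscle genes went either way, such as Actc1 (-0.26) and Myh8 (0.60). Of the 10 mesenchymal markers, 4 were higher and 6 lower.

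**Figure D5:**
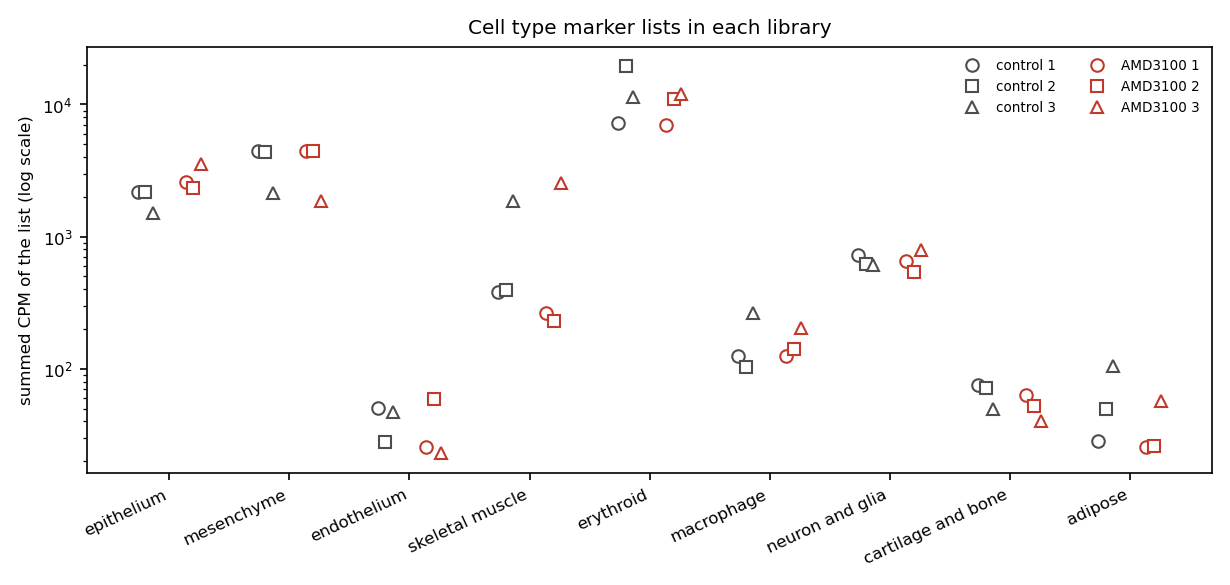
Summed CPM of 9 cell type marker lists (log axis) in each library, control in grey and AMD3100 in red, with the shape giving the replicate number. The epithelial sum is at least 2328 CPM in the AMD3100 libraries and at most 2189 CPM in control, and the muscle sum is highest in both replicate 3 libraries.

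The genes most like Tsc1 across the 6 libraries, by the root mean square difference of centred log2 CPM over 10241 genes with a mean of at least 5 CPM, were Smarca2, a chromatin remodelling ATPase, Hspa8, a chaperone, and Mtdh, at 0.0342, 0.0365 and 0.0428, beside a median of 0.504 over those genes. For Foxo1 they were Scg5, Mansc4 and Lysmd1, at 0.189, 0.189 and 0.192, beside a median of 0.753, so the nearest profile to that of Foxo1 was farther off than for Tsc1. The log2 fold change of Scg5, chosen for its likeness to a gene selected on this contrast and so not tested by it, was 0.69 without and 0.78 with the replicate block. Of 11 reads of 50 bases taken from the 3′ end of each gene in NCBIM37, 10 matched elsewhere in the genome for both Hspa8 and Lysmd1, whose counts are therefore uncertain. Of the 10 members, 9 had 0 of 11 reads that matched elsewhere, and Rheb had 1 of 11. As for Tsc2 and Prkaa1, a gene on the opposite strand overlaps the 3′ end of Ccnd1 (Oraov1), Stk11 (Dos), Prkag1 (B130046B21Rik) and Slc7a5 (Gm20388). Reads of these genes cannot be told apart from those of the overlapping gene if the counting did not use strand.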

How the data were processed

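For each of the 6 libraries the authors deposited unnormalized counts of reads by gene symbol. The submitters' processing notes name Bowtie2, edgeR and mm10, and the libraries were 3′ mRNA libraries read as 50 bp single reads. The counting program, its use of strand and the annotation are not given in the sources used here. Of 23282 lines in a library, 44 repeated the symbol of an earlier line, and 22 of them held identical counts and were dropped. Rn45s, the ribosomal RNA precursor, took between 16.2% and 32.5% of the counts of a library and was left out in 1 alternative.

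Counts were normalized by TMM, filtered with filterByExpr and fitted by condition with edgeR 4.0.16 (glmQLFit, glmQLFTest, Benjamini-Hochberg adjustment) in R 4.3.3, and the fits were tested on simulated data. The thresholds were a fold change over 1.5 and an unadjusted p under 0.05. The SE of a log2 fold change is its size divided by the square root of the quasi-likelihood F statistic. It draws on dispersion shared between genes and is not the spread of the gene alone. For Tsc1 it is 0.30, beside an SD of 0.11 between libraries of a group. The biological coefficient of variation was 0.579, and 0.446 with the replicate number as a block. Both groups share replicate numbers in the labels, and a pair here means libraries of the same number. Same-numbered libraries deviated together from their group means, with correlations of 0.185, 0.171 and 0.584 for replicates 1, 2 and 3. Each was over the 0.1 set as the minimum, so the number was tried as a block. Libraries with different numbers correlated as well for control 2 with AMD3100 1 (0.198) and control 1 with AMD3100 2 (0.146) and were negative for the other 4 pairs, so only replicate 3 was set apart. The check cannot tell whether replicates 1 and 2 are paired by number, because their mismatched libraries correlate as much. Tried as alternatives were the replicate block, DESeq2 1.42.0, limma-voom (limma 3.58.1) on quantile-normalized values, upper quartile normalization, a minimum of 10 counts in every library or no minimum, robust estimation, Rn45s left out, replicates 1 and 2 only, each library left out, and a pseudocount of 0.5 in place of 1 in the ratios within a library.

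The members and lists were chosen with earlier results of these data known. Named are the members, the called genes and up to the 3 most abundant genes of each list, Cxcr4, Cxcl12 and the 3 genes nearest in profile to Tsc1 and to Foxo1, and genes named outside this rule (those without overlap, those called with the block, Deptor and single markers) were chosen after their values were seen. Start regions and positions are from RefSeq on GRCm38.p6, in which all 10 members were found. Reads of 50 bases, taken every 25 bases over the last 300 bases of each gene of GENCODE vM1 on NCBIM37, were aligned with minimap2 2.31-r1302, and this build is not that of the submitters' notes. Amino acid sequences were not analysed here.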

Additional observations from a re-analysis of the deposited data

How the results depend on the processing

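Of 241 values (counts, log2 fold changes and ratios) recomputed under the alternatives, 222 stayed within 1.5 times for a count or 1 SD for a fold change or ratio and 19 moved farther, of which 1 was the log2 fold change of Tsc1 (0.45 in replicates 1 and 2 only) and the others were the counts given here. The number of genes past fold and p, 228, was 479 with DESeq2, 598 with the replicate block, 613 in replicates 1 and 2 only, and between 163 and 547 with 1 library left out (451 without AMD3100 replicate 3 and 547 without control replicate 3). The number with an adjusted p under 0.05, 0, was 5 with DESeq2 and 3 with the replicate block. Of the pathway list genes, 2 were past fold and p, against 1 after quantile normalization with limma-voom, 1 without the filter, 4 with the replicate block, and between 1 and 4 with 1 library left out (4 without AMD3100 replicate 3, and 1 without control replicate 1, control replicate 2, AMD3100 replicate 1 or AMD3100 replicate 2). Of the members, for which such counts are a description since Tsc1 and Foxo1 were selected on this contrast, 0 were past fold and p, against 2 with the replicate block, 1 (Foxo1) in replicates 1 and 2 only, and between 0 and 1 with 1 library left out (Foxo1, without control replicate 3). The cause was not tested. The block also put Scg5 past the thresholds (a description, since it was chosen for its likeness to Foxo1). Other calls that it changed are given beside the genes. Depth weighs most on Foxo3 and Prkaa2, with 0 to 43 counts a library, although some of their libraries within a group also differ by more than counting error. The sign held in every setting for Tsc1, Rptor, Prkaa1, Prkaa2 and Foxo1 and turned in 1 setting for Tsc2, 3 for Rheb, 2 for Mtor and 2 for Rictor.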
